A study of Homo sapiens with 6 samples.

Results

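Mitochondrial ribosomal protein genes were compared in C4-2 cells, between the parental line and a line resistant to enzalutamide that the labels call Enz-R. Members were the protein-coding genes whose GENCODE 29 symbol is MRPL or MRPS followed by a digit, 49 for the large and 29 for the small subunit. All 78 were in the count table of 59565 loci, and all 78 were among the 19029 genes with enough counts to be tested. A further 77 loci with the same stem are not protein-coding and were left out. C4-2 is an androgen-independent derivative of the human prostate cancer line LNCaP, and enzalutamide blocks the androgen receptor. Each group held 3 RNA-seq libraries, and the labels give no genotype or treatment beyond the name of the line. They do not say how the resistant line was made, whether it is 1 clone, or whether its cells were in drug when collected. They name no separate cultures either, so each p-value reflects library-to-library spread within this set, possibly technical spread alone.

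The mitochondrial ribosome translates the few messenger RNAs that the mitochondrial genome encodes, all for subunits of the respiratory chain and ATP synthase. Its ribosomal RNAs come from mitochondrial DNA, while every one of its proteins is encoded in the nucleus, made in the cytosol and imported. The small subunit binds the messenger RNA and decodes it. The large subunit joins amino acids, and in mammals it is held to the inner membrane. Some of the proteins have counterparts in bacterial ribosomes and others were gained in the mitochondrial lineage.

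Library totals ran from 15673404 to 28247038 counts, and members took 0.436 to 0.452% of the counts in the parental libraries and 0.467 to 0.493% in the Enz-R libraries. Mitochondrially encoded transcripts took 8.78 to 11.3% and 14.5 to 15.5%. All 10 markers of prostate luminal cells were above 5 CPM (counts scaled to a common library total) in both groups, at summed levels of 9547 to 10162 CPM in parental and 5554 to 5777 CPM in Enz-R cells. Markers of basal cells, fibroblasts and smooth muscle, endothelium and leukocytes (19 genes in all) summed to at most 9.76 CPM per list in any library, and KRT14 was at 0 in every Enz-R library. The part of the lower luminal marker sum and of the higher mitochondrial share in the results below was not tested.

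The comparison asks how the genes for this ribosome differ between the resistant and the parental cells. In Enz-R, 43 of the 78 members were higher, 9 were lower and 26 were not called, by edgeR's quasi-likelihood test at a Benjamini-Hochberg adjusted p under 0.05 over all tested genes. That is 55.1% higher and 11.5% lower, against 32.4% higher and 32.3% lower among all 19029 genes tested, and against 31.8% higher and 37.3% lower among the 13580 that are protein-coding. At a cut of 1.5-fold, 19 members (24.4%) were called higher and 3 (3.85%) lower. The shares were 20.2% and 17.6% of all tested genes, and 16.6% and 17.7% of the protein-coding ones. At that size the share of higher members is thus nearer to that of all tested genes than without the cut. The median log2 fold change (Enz-R over parental, used for all changes below) was 0.25 over the members and 0.01 over all tested genes. The 3 Enz-R libraries were all above the 3 parental ones for 43 members and all below for 11, against 34.2% and 34.7% of all tested genes. In bulk RNA such as this, fewer cells of a type and less RNA per cell cannot be told apart.

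The libraries of a group did not lie equally close. The median coefficient of variation of the members was 4.48% in the parental and 7.28% in the Enz-R group, and Enz-R replicate 1 had the highest value of the 3 for 61 of the 78 members. The members' median deviation from their parental mean was 0.36 on the log2 scale in that library and 0.21 and 0.16 in the other two. Without it 39 members were higher and 15 lower. Scaling by total counts in place of edgeR's TMM factors also gave 15 lower members, with 38 higher.

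Subunits here follow the symbol, although the products of MRPS18A, MRPS30 and MRPS36 are now placed outside the small subunit. In the large subunit 30 of 49 genes (61.2%) rose and 3 fell, with a median of 0.34. In the small subunit 13 of 29 (44.8%) rose and 6 fell, with a median of 0.07. The median of the large subunit was thus above that of the small by 0.27, a difference for which no test across genes was made. It was 0.13 among the 37 members whose exons overlap no other gene, where 18 large-subunit members rose, and 8 small-subunit members rose and 2 fell. With scaling by total counts the small subunit's median was −0.03, and with at least 50 counts in 3 libraries 0.12. With GC content and length of the longest transcript (transcript length below) regressed out it was 0.021. It was 0.024 without Enz-R replicate 1, 0.038 without parental replicate 1 and 0.029 without parental replicate 2.

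**Figure D1:**
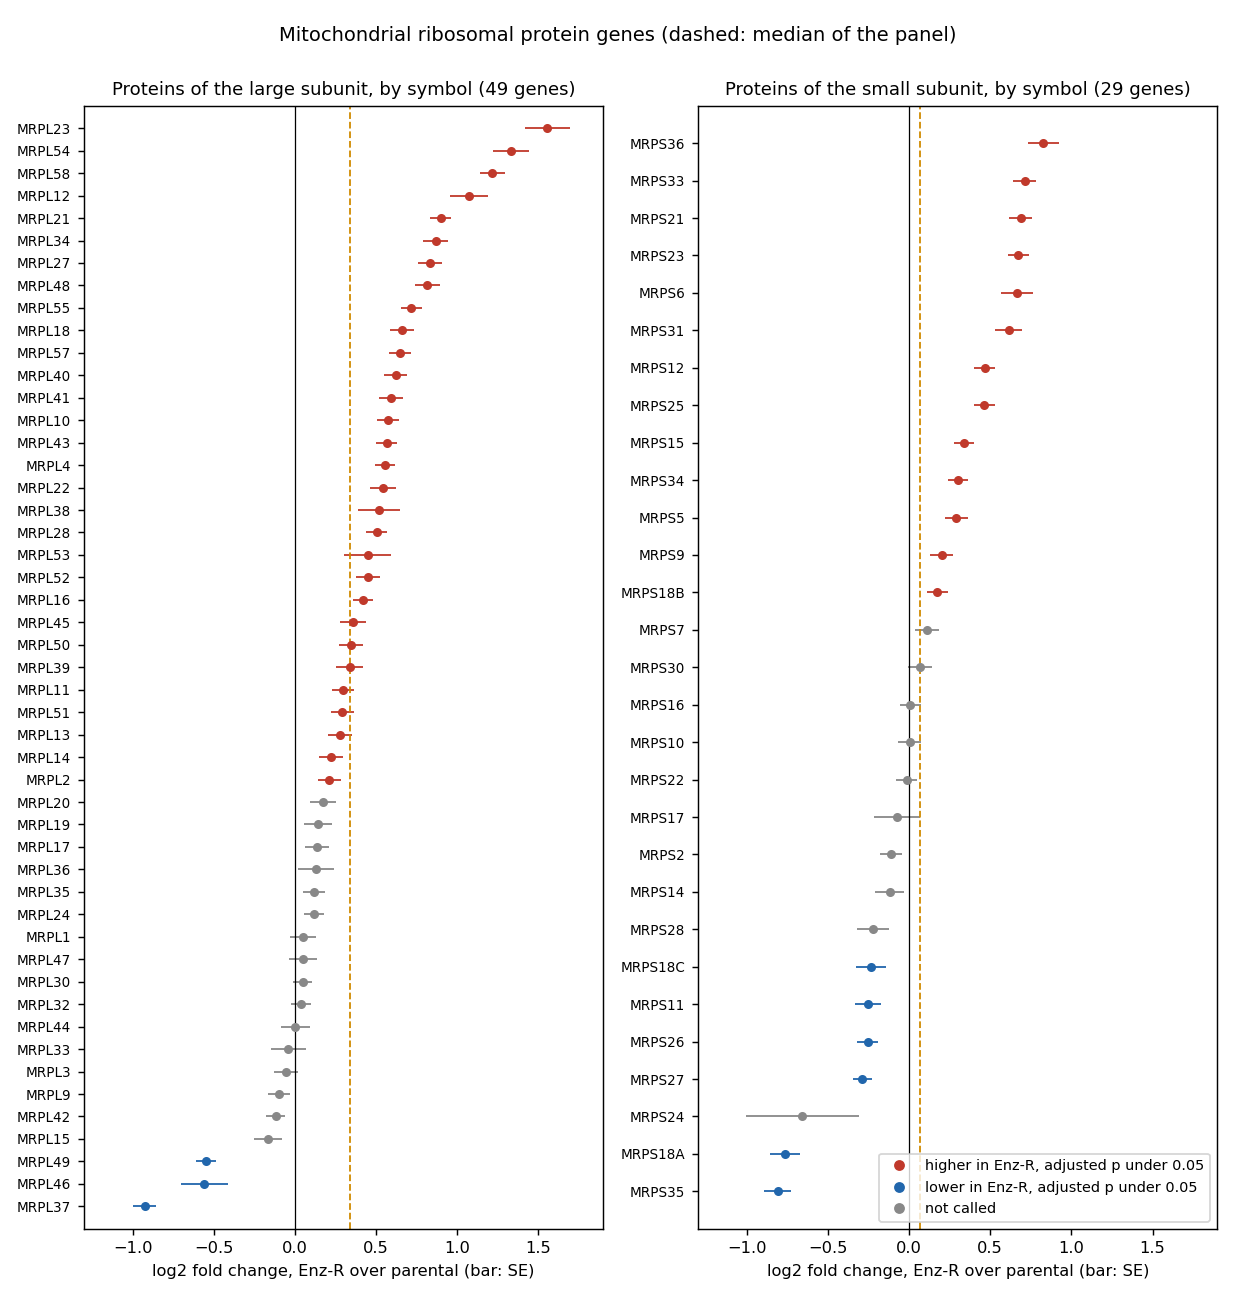
Log2 fold change (Enz-R over parental, horizontal axis) of each of the 78 members with its standard error, the large subunit in one panel and the small subunit in the other, coloured by the call. The large subunit holds the largest rises, led by MRPL23 at 1.55, and the largest fall, MRPL37 at −0.92.

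Summing the members of a subunit after scaling each by its exon length gave a level per library. The large subunit summed to 1235, 1208 and 1239 CPM per kilobase in parental replicates 1 to 3 and to 1619.8, 1448 and 1496 in Enz-R replicates 1 to 3, so all Enz-R libraries were higher (1227 ± 16.6 against 1521 ± 88.5, SD, n = 3 each). The small subunit summed to 624, 646 and 646 CPM per kilobase in the parental libraries and to 734, 683 and 669 in Enz-R, also without overlap (639 ± 12.9 against 695 ± 34.2). The mean sums were 1.24-fold and 1.09-fold higher. The ratio of the large to the small sum was 1.98, 1.87 and 1.92 in the parental libraries and 2.21, 2.12 and 2.24 in Enz-R. Every Enz-R library had a higher ratio than every parental one, by 1.14-fold on average with length scaling and 1.09-fold without it.

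**Figure D2:**
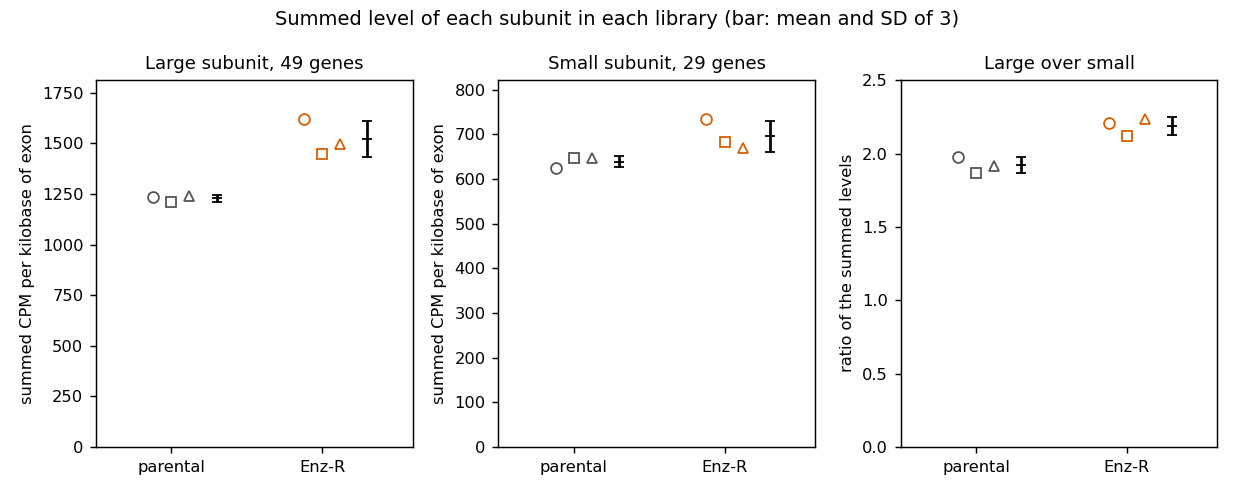
Summed level in CPM per kilobase of exon of the 49 large-subunit and the 29 small-subunit genes, and the ratio of both, for each library (points) with the mean and SD of 3 (bars). Enz-R libraries lie above parental ones in all 3 panels, and Enz-R replicate 1 is the highest in both sums.

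Promoters of the members were searched for letters that known regulators of nuclear genes for mitochondria bind. NRF1 and the ETS factor GABPA (also called NRF-2) are such regulators, and YY1 and E-box binding factors such as MYC are others. RefSeq promoter windows (GRCh38.p14, 250 bases before to 50 after a start) were on hand for 69 of the 78 members and for 10945 tested protein-coding genes, and both strands were read. The ETS letters CCGGAAG were in a window of 30 members (43.5%), against 21.6% of the tested protein-coding genes. The YY1 letters AAGATGGC were in 21 members (30.4%), against 6.17%. The NRF1 letters (GCGC, any 1 base, TGCGC) and the E-box CACGTG were in 9 members each (13.04%), against 12.9% and 12.6%. Matches of different motifs may overlap, and none was removed for that.

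The ETS letters were in 19 of the 37 members with a window that rose, 3 of the 9 that fell and 8 of the 23 that were not called. Members with them had a median log2 fold change of 0.45 and those without 0.13, which is a description with no test. They were in 18 of 42 large-subunit and 12 of 27 small-subunit members. The YY1 letters were in 8 of the 37 that rose, 4 of the 9 that fell and 9 of the 23 not called. Medians with and without them were 0.11 and 0.32. For the E-box these were 0.13 and 0.29, and for the NRF1 letters 0.22 and 0.23, again with no test. The E-box was in 4 of the 37 that rose, 3 of the 9 that fell and 2 of the 23 not called. For the NRF1 letters these counts were 6, 0 and 3. A total of 19 members had none of the 4 motifs and 16 had at least 2.

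Shown next are the 120 bases before the RefSeq start for 2 large-subunit genes that rose (MRPL54, MRPL58), 1 small-subunit gene that rose (MRPS31), 1 without a change past the test (MRPS10) and 2 that fell (MRPS18A, MRPL37). Capitals mark the ETS letters on either strand, which occur in genes of every kind of call, and MRPL37 has no searched motif here. The RefSeq start used for MRPL37 lies inside its GENCODE span. Each is written 5′ to 3′ on the gene's strand, at chr19:3762562-3762681 on the plus strand, chr17:75012550-75012669 on the plus strand, chr13:40771191-40771310 on the minus strand, chr6:42217862-42217981 on the minus strand, chr6:43687792-43687911 on the minus strand and chr1:54200047-54200166 on the plus strand, in that order (GRCh38.p14).
MRPL54: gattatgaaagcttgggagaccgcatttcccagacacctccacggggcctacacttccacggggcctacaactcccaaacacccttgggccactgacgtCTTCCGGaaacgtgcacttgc
MRPL58: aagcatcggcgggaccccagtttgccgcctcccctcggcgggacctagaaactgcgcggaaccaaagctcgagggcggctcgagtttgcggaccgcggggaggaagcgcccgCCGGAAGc
MRPS31: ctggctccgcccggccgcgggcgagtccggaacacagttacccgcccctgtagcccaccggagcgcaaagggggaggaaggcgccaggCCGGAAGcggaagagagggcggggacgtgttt
MRPS10: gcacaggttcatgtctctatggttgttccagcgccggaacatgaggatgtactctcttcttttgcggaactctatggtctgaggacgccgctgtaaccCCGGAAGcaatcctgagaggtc
MRPS18A: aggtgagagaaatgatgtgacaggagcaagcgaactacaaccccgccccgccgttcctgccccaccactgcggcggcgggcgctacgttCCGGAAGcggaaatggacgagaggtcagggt
MRPL37: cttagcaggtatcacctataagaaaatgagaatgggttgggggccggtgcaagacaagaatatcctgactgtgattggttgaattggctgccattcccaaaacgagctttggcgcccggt

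The largest rises were all in the large subunit. MRPL23 (ENSG00000214026, chr11:1947278-1984522, plus strand, GRCh38) encodes a protein near the mouth of the exit tunnel, conserved in bacteria. Its level was 15.1, 16.3 and 14.0 CPM in the parental libraries and 33.3, 45.6 and 55.1 CPM in the Enz-R libraries (log2 fold change 1.55 ± 0.14, adjusted p = 1.32e-07). The groups were far apart, but the Enz-R libraries varied more than for most members (coefficient of variation 24.4%), and here replicate 1 was the lowest of the 3. MRPL54 (ENSG00000183617, chr19:3762664-3768575, plus strand), a protein without a bacterial counterpart and 1 of those whose promoter is shown above, was at 9.64, 9.92 and 9.37 CPM in the parental libraries and 27.6, 20.5 and 24.5 CPM in the Enz-R libraries (log2 fold change 1.33 ± 0.11, adjusted p = 6.27e-08). All 3 Enz-R values were more than 2 times the highest parental one. MRPL58 (ENSG00000167862, chr17:75012670-75021261, plus strand), also known as ICT1, frees stalled ribosomes by cutting the peptide from its tRNA. Its level was 36.6, 34.5 and 34.8 CPM in the parental libraries and 92.6, 75.4 and 77.7 CPM in the Enz-R libraries (log2 fold change 1.22 ± 0.08, adjusted p = 4.54e-09), with close parental libraries and the highest Enz-R value in replicate 1.

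MRPL12 (ENSG00000262814, chr17:81703357-81707526, plus strand) forms the stalk that recruits translation factors and has also been reported to bind the mitochondrial RNA polymerase. It was at 14.6, 17.3 and 20.6 CPM in the parental libraries and 33.5, 34.3 and 42.6 CPM in the Enz-R libraries (log2 fold change 1.08 ± 0.12, adjusted p = 1.11e-06), with no overlap between groups. Its change was 0.67 after GC content and transcript length were regressed out. Another annotated gene, AC139530.2, covers 68.2% of its exons on the same strand and had 0 counts in every library, so the division of reads between them is uncertain. MRPL21 (ENSG00000197345, chr11:68891276-68903835, minus strand) was at 40.4, 38.4 and 39.8 CPM in the parental libraries and 77.5, 68.8 and 74.7 CPM in the Enz-R libraries (log2 fold change 0.90 ± 0.07, adjusted p = 1.60e-08). MRPL34 (ENSG00000130312, chr19:17292609-17306843, plus strand) was at 39.4, 37.8 and 37.9 CPM in the parental libraries and 78.8, 62.8 and 67.9 CPM in the Enz-R libraries (log2 fold change 0.87 ± 0.08, adjusted p = 1.68e-07). Both encode proteins of the bacterial core, and for both the lowest Enz-R library was well above the highest parental one.

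The other large-subunit genes that rose ran from MRPL27 (0.83 ± 0.07) and MRPL48 (0.82 ± 0.08) down to MRPL14 (0.22 ± 0.08) and MRPL2 (0.21 ± 0.07). MRPL45, whose protein tethers the ribosome to the inner membrane, rose by 0.36 ± 0.08. MRPL18, whose product has been reported to carry a ribosomal RNA to mitochondria, rose by 0.66 ± 0.07. MRPL57, a protein specific to mitochondria, rose by 0.65 ± 0.07. MRPL53 (0.45 ± 0.15) and MRPL38 (0.52 ± 0.13) were called too, but exons of another gene on the same strand cover 45.2% and 37.5% of theirs. MRPL53 lost its call in 4 and MRPL38 in 2 of 16 other settings, among them GC content and transcript length regressed out. For MRPL14 the groups overlapped. It lost its call in 7 of the 16, with a value of −0.017 at the lowest, and MRPL2 lost its own in 6.

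The small subunit's largest rises began with a gene of unsettled place. MRPS36 (ENSG00000134056, chr5:69217760-69230129, plus strand) was at 15.7, 14.1 and 14.7 CPM in the parental libraries and 28.6, 27.1 and 23.2 CPM in the Enz-R libraries (log2 fold change 0.83 ± 0.09, adjusted p = 1.75e-06). Its product is now assigned to the 2-oxoglutarate dehydrogenase complex under the name KGD4. MRPS33 (ENSG00000090263, chr7:141002610-141015228, minus strand), a protein specific to mitochondria, was at 54.8, 56.2 and 54.6 CPM in the parental libraries and 99.5, 88.6 and 82.8 CPM in the Enz-R libraries (log2 fold change 0.71 ± 0.07, adjusted p = 4.06e-07). MRPS21 (ENSG00000266472, chr1:150293720-150308979, plus strand), which has a bacterial counterpart, was at 74.4, 82.0 and 84.2 CPM in the parental libraries and 139, 123 and 124 CPM in the Enz-R libraries (log2 fold change 0.69 ± 0.07, adjusted p = 4.87e-07). In all 3 genes the Enz-R libraries lay above the parental ones, and replicate 1 was the highest.

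MRPS23 (ENSG00000181610, chr17:57834781-57850056, minus strand) was at 43.5, 44.7 and 43.3 CPM in the parental libraries and 75.01, 67.3 and 67.2 CPM in the Enz-R libraries (log2 fold change 0.67 ± 0.07, adjusted p = 3.34e-07). MRPS6 (ENSG00000243927, chr21:34073224-34143034, plus strand) was at 10.6, 11.3 and 12.1 CPM in the parental libraries and 17.3, 17.9 and 18.7 CPM in the Enz-R libraries (log2 fold change 0.67 ± 0.10, adjusted p = 2.39e-05). MRPS31 (ENSG00000102738, chr13:40729135-40771173, minus strand), with the promoter printed above, was at 15.3, 17.2 and 17.7 CPM in the parental libraries and 24.8, 25.9 and 26.0 CPM in the Enz-R libraries (log2 fold change 0.61 ± 0.08, adjusted p = 1.30e-05). Groups were separate for these as well, and MRPS6 and MRPS31 had Enz-R libraries that lay close to each other. MRPS12, whose bacterial counterpart is the site of streptomycin resistance, rose by 0.47 ± 0.06.

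**Figure D3:**
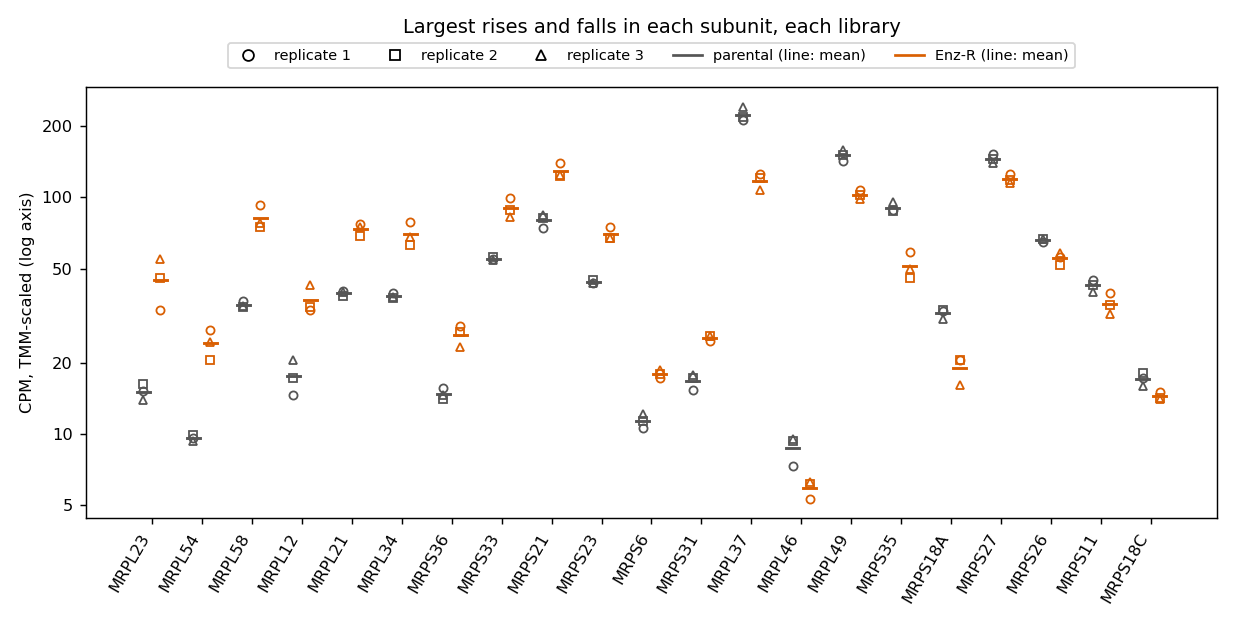
TMM-scaled CPM (log axis) of members with the largest called rises and falls in each library, parental and Enz-R side by side. Enz-R points lie apart from parental points for each of them, above for genes such as MRPL58 and below for genes such as MRPL37.

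Against this direction, 3 large-subunit genes fell. MRPL37 (ENSG00000116221, chr1:54184041-54225464, plus strand), a protein specific to mitochondria, was at 212, 219 and 241 CPM in the parental libraries and 125, 120.3 and 108 CPM in the Enz-R libraries (log2 fold change −0.92 ± 0.07, adjusted p = 2.75e-08). The lowest parental library was well above the highest Enz-R one, and this was the largest fall of any member. MRPL49 (ENSG00000149792, chr11:65122183-65127371, plus strand), also specific to mitochondria, was at 142, 151 and 158 CPM in the parental libraries and 108, 102 and 98.1 CPM in the Enz-R libraries (log2 fold change −0.55 ± 0.06, adjusted p = 2.11e-06), also without overlap. FAU, a gene for a cytosolic ribosomal protein that overlaps it on the other strand by 282 bases of exon, was higher by 0.80, and the kit is not stated to mark strand. MRPL46 (ENSG00000259494, chr15:88459476-88467419, minus strand) was at 7.35, 9.37 and 9.52 CPM in the parental libraries and 5.34, 6.18 and 6.28 CPM in the Enz-R libraries (log2 fold change −0.56 ± 0.14, adjusted p = 0.00288). It is among the least abundant members, and the nearest libraries of the groups were close. The call was lost when GC content and transcript length were regressed out (adjusted p = 0.0545, edgeR).

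In the small subunit MRPS35 (ENSG00000061794, chr12:27710773-27756295, plus strand), specific to mitochondria, was at 88.3, 87.3 and 95.7 CPM in the parental libraries and 58.9, 45.6 and 49.9 CPM in the Enz-R libraries (log2 fold change −0.81 ± 0.08, adjusted p = 5.75e-07). MRPS18A (ENSG00000096080, chr6:43671303-43687791, minus strand) was at 33.2, 33.5 and 30.7 CPM in the parental libraries and 20.6, 20.5 and 16.0 CPM in the Enz-R libraries (log2 fold change −0.76 ± 0.09, adjusted p = 3.43e-06). Both fell without overlap between groups. MRPS18A is 1 of 3 paralogs of a bacterial small-subunit protein, and its product sits in the large subunit of the mitochondrial ribosome. Its paralog MRPS18C was at 17.2, 18.1 and 16.0 CPM in the parental libraries and 15.1, 14.2 and 14.1 CPM in the Enz-R libraries (log2 fold change −0.24 ± 0.09, adjusted p = 0.0358), and MRPS18B at 74.9, 74.4 and 73.5 CPM in the parental libraries and 90.4, 77.2 and 83.5 CPM in the Enz-R libraries (log2 fold change 0.17 ± 0.07, adjusted p = 0.031). The calls for these 2 paralogs did not hold: MRPS18C lost it in 9 and MRPS18B in 8 of 16 other settings, with the direction kept in all 16. Exons of ABRAXAS1 cover 40.2% of MRPS18C on the other strand.

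MRPS27, an RNA-binding protein with pentatricopeptide repeats, was at 152, 145 and 140.5 CPM in the parental libraries and 125, 118 and 115 CPM in the Enz-R libraries (log2 fold change −0.29 ± 0.06, adjusted p = 7.05e-04). MRPS26, specific to mitochondria, was at 65.1, 66.5 and 66.5 CPM in the parental libraries and 56.0, 51.8 and 58.1 CPM in the Enz-R libraries (log2 fold change −0.26 ± 0.06, adjusted p = 0.00239). MRPS11, a protein of the platform with a bacterial counterpart, was at 44.7, 42.8 and 39.9 CPM in the parental libraries and 39.4, 35.2 and 32.3 CPM in the Enz-R libraries (log2 fold change −0.25 ± 0.08, adjusted p = 0.0114). These 3 falls were shallow but without overlap between groups. With transcript length and GC content regressed out, MRPS26 fell by 0.64. In that fit MRPS27 (adjusted p = 0.0705, edgeR) and MRPS11 (adjusted p = 0.131, edgeR) were not called. MRPS11 also lost its call without Enz-R replicate 3 (adjusted p = 0.0596, edgeR).

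Of the 26 members that were not called, the 2 with the smallest change in the large subunit were MRPL44, with an RNase III-like fold, and MRPL32, and in the small subunit MRPS10 and MRPS16. Their log2 fold changes were 0.00 ± 0.09, 0.04 ± 0.06, 0.00 ± 0.07 and 0.01 ± 0.06, in that order, and their signs turn with the processing. MRPS30, a protein named for the small subunit that sits in the large one, was at 0.07 ± 0.08. It was called higher with transcript length and GC content regressed out, at 0.23. MRPS24 had the fewest counts, with as few as 10 counts in a library, at −0.66 ± 0.35 (adjusted p = 0.113). A read-through gene, URGCP-MRPS24, shares 606 bases of its exons. Every other member had at least 87 counts in every library.

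Members with the highest level per kilobase of exon were MRPL41 and MRPL24 in the large subunit and MRPS34 and MRPS21 in the small. MRPL41, specific to mitochondria, was at 87.3, 93.4 and 104 CPM in the parental libraries and 139, 137 and 153 CPM in the Enz-R libraries (log2 fold change 0.59 ± 0.07, adjusted p = 4.05e-06). Per kilobase it was at 75.3 ± 6.82 CPM in parental and 113 ± 6.97 in Enz-R cells (SD, n = 3 each). MRPL24, a protein that starts assembly of the bacterial large subunit, was at 155, 140.3 and 141 CPM in the parental libraries and 161, 154 and 157 CPM in the Enz-R libraries (log2 fold change 0.11 ± 0.06, adjusted p = 0.115), and its groups overlapped. It was called higher without parental replicate 1 and with at least 50 counts in 3 libraries. MRPS34, needed for a stable small subunit, was at 92.6, 101 and 99.8 CPM in the parental libraries and 125, 122 and 114 CPM in the Enz-R libraries (log2 fold change 0.30 ± 0.06, adjusted p = 5.27e-04). Per kilobase it was at 89.1 ± 4.13 and 109.8 ± 5.01 CPM, so MRPS34 and MRPL41 did not differ beyond their spread in Enz-R. MRPL41 and MRPS34 lost their calls with transcript length and GC content regressed out. MRPL41 was then at 0.15 (adjusted p = 0.107, edgeR) and MRPS34 at −0.10 (adjusted p = 0.177, edgeR). By the length of the longest transcript MRPL37 takes the place of MRPL41 in this order.

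Sorted by origin, 46 members have a counterpart in bacterial ribosomes, 29 are specific to mitochondria and 3 (MRPL55, MRPS28, MRPS36) were left unassigned. Of the conserved members 22 rose and 3 fell, with a median of 0.16. Of those specific to mitochondria 19 rose and 6 fell, with a median of 0.36, so 86.2% of the latter and 54.3% of the former were called, against 64.8% of all tested genes. The 3 falls in the large subunit (MRPL37, MRPL46, MRPL49) were all among its 19 mitochondria-specific proteins, of which 14 rose, including MRPL54 and MRPL58. Of its 29 conserved members 15 rose, and 0 were called lower by edgeR, DESeq2 or limma-voom (also 0 at an unadjusted p under 0.05). Under 5 other settings edgeR did call some of these lower. These were MRPL15 with a replicate block, MRPL3 and MRPL15 without Enz-R replicate 1, and MRPL9 and MRPL15 with total count scaling. With transcript length and GC content regressed out they were MRPL9, MRPL15 and MRPL36, and MRPL33 as well when the block was added. In the small subunit 7 of 17 conserved members rose and 3 fell, and 5 of 10 specific ones rose and 3 fell.

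Where a member lies on its chromosome was set against the change of its neighbours, taken as the 5 nearest tested protein-coding genes on each side. Other members and head-to-head partners were not left out of the neighbours. The log2 fold change of a member and the median of its neighbours correlated at r = 0.55 (Spearman's rho = 0.54) over 78 members. Over 13340 tested protein-coding genes the same quantity was 0.27 (rho = 0.30). Both are descriptions across genes of the same 6 libraries, with no test. Of the 43 members that rose, 27 had neighbours with a median above 0, and of the 9 that fell, 8 had neighbours with a median below 0. The same shares over all tested genes were not computed. MRPL58 rose among neighbours with a median of 0.91 and MRPL54 among neighbours at 0.52, while the neighbours of MRPL23 were at 0.01. Among those that fell, the neighbours of MRPS35 were at −0.80 and those of MRPL37 at −0.40, and MRPL49 was the exception, with neighbours at 0.31. DNA copy number was not analysed here.

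**Figure D4:**
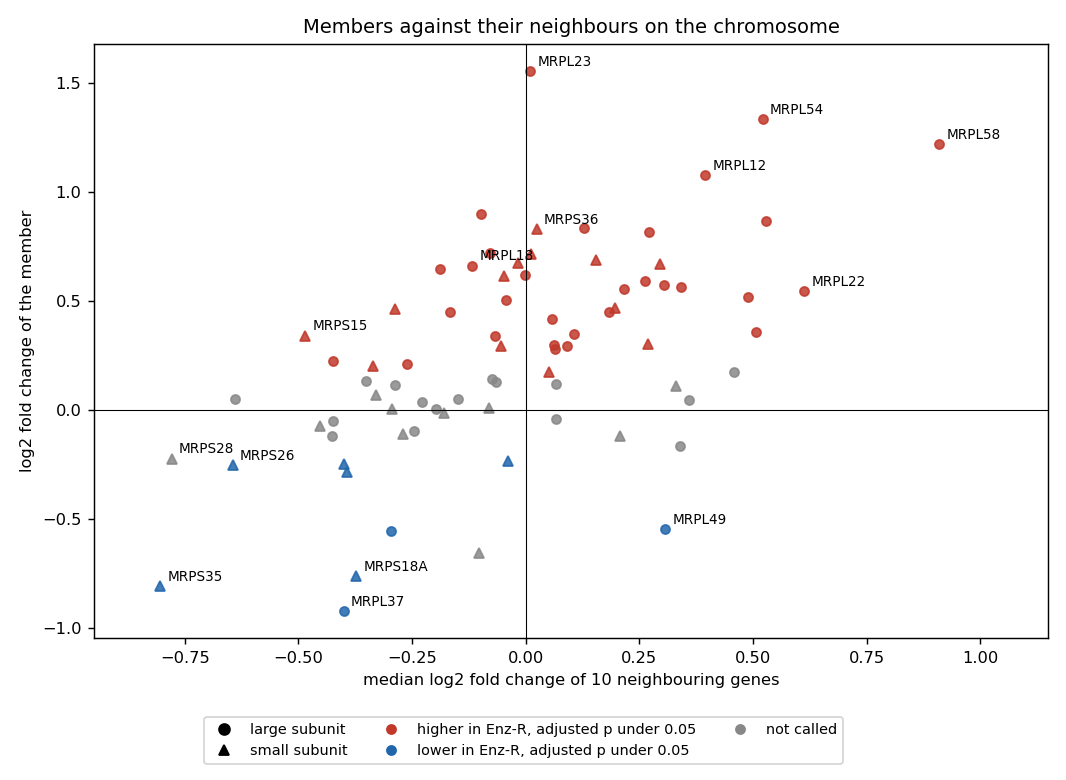
Log2 fold change of each of the 78 members (vertical axis) against the median log2 fold change of its 10 nearest tested protein-coding genes (horizontal axis), by subunit (shape) and call (colour). MRPL58 and MRPS35 lie at the ends of the trend, and MRPL23 and MRPL49 lie away from it.

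By chromosome, 7 of 8 members on chromosome 17 and 4 of 4 on chromosome 19 rose, and the remaining one, MRPS7, was at 0.11 ± 0.07 and was not called. MRPL58 and MRPL12 are on the former and MRPL54 and MRPL34 on the latter. Of all tested protein-coding genes on these chromosomes 44.9% and 51.0% rose, with medians of 0.16 and 0.27. The 12 members had a median of 0.62, and the 66 on other chromosomes one of 0.16. Both members on chromosome 15, MRPS11 and MRPL46, fell, and they lie head to head with starts 34 bp apart.

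Members shared a start region with another gene in 13 head-to-head pairs within 200 bp, of which 12 had both genes tested. In 6 pairs both genes were called, always in the same direction: 5 pairs rose and the pair of MRPS11 and MRPL46 fell. Of all tested genes 64.8% were called, and the share of such pairs among all tested genes was not computed. MRPL21 rose with IGHMBP2 (0.45), MRPL27 with EME1 (0.51), MRPL10 with LRRC46 (0.98), MRPL52 with SLC7A7 (1.14) and MRPS34 with EME2 (0.67). In other pairs only 1 gene moved, such as MRPL18 and MRPL57, whose partners TCP1 and SKA3 were at −0.04 and 0.06 and were not called. MRPL30 was at 0.05, not called, beside MITD1, which rose by 0.67. MRPL47 was also at 0.05 and not called, beside NDUFB5, which was called lower (−0.28). Of the 12 tested partners 7 were called higher and 2 lower.

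Exons of 41 members overlap those of another gene on either strand, and reads there cannot be assigned with certainty. Of these 17 rose and 7 fell, with a median of 0.05. Of the 37 without overlap 26 (70.3%) rose and 2 (MRPS35, MRPS26) fell, with a median of 0.42. Some partners moved against the member: SEMA4G (−0.82) beside MRPL43 (0.56) and NCAPD2 (−0.38) beside MRPL51 (0.29). MRPL51 lost its call with transcript length and GC content regressed out. Members are short genes, with a median longest transcript of 1722 bases against 3659 for tested protein-coding genes. Among 6695 other protein-coding genes with a transcript in the range of 983 to 3789 bases, which holds the middle 80% of the members, 39.6% rose and 28.4% fell, with a median of 0.09. GC content of the transcript and log2 fold change correlated at r = 0.27 over the members and 0.11 over all tested protein-coding genes, again as a description.

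Other genes of mitochondrial translation did not all move with the members. For each list below, the shares among all tested genes were 32.4% higher and 32.3% lower. Among the protein-coding ones they were 31.8% and 37.3%. Of 5 mitoribosomal proteins with other names, GADD45GIP1 (0.72 ± 0.08), AURKAIP1 (0.46 ± 0.07) and CHCHD1 (0.39 ± 0.07) rose, DAP3 (−0.42 ± 0.06) fell and PTCD3 was not called. With each protein placed by its position in the ribosome, MRPS36 left out and these 5 added, 31 large-subunit genes rose and 4 fell. Of the small-subunit genes 14 rose and 6 fell. Mitochondrial aminoacyl-tRNA synthetases, which charge the tRNAs, counted 9 of 20 that fell and 1, VARS2 (0.38 ± 0.07), that rose. That is 45% lower and 5% higher, with a median of −0.14. The largest falls were LARS2 (−0.89 ± 0.07), FARS2 (−0.59 ± 0.11) and PARS2 (−0.51 ± 0.13).

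Of 17 mitochondrial translation factors 8 (47.1%) rose and 4 (23.5%) fell, with a median of 0.10. SLIRP, which stabilises mitochondrial messenger RNA, rose by 0.88 ± 0.16, the initiation factor MTIF3 by 0.78 ± 0.08 and the release factor MTRF1 by 0.62 ± 0.10. The recycling factor GFM2 (−0.68 ± 0.07), the elongation factor GFM1 (−0.32 ± 0.06) and GUF1 (−0.26 ± 0.07) fell. Of 24 genes for assembly of the ribosome and modification of its RNA 8 rose, such as the rRNA methyltransferases MRM1 (0.94 ± 0.12) and MRM3 (0.62 ± 0.10) and MPV17L2 (0.50 ± 0.08). In that list 7 fell, such as NSUN4 (−0.45 ± 0.06), TRMT61B (−0.41 ± 0.08) and GTPBP10 (−0.39 ± 0.07), and the median was 0.05. Its shares of 33.3% higher and 29.2% lower were near those of all tested genes.

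Of 12 genes that maintain and transcribe mitochondrial DNA 5 rose and 3 fell, with a median of 0.11. POLRMT, the RNA polymerase, rose by 0.45 ± 0.06, POLG2 by 0.38 ± 0.07 and MTERF2 by 0.33 ± 0.09. POLG, the catalytic subunit of the DNA polymerase (−1.06 ± 0.07), TFAM, which packages the genome (−0.41 ± 0.07), and the nuclease MGME1 (−0.28 ± 0.07) fell. Of 9 regulators of nuclear genes for mitochondria 3 rose and 1 fell, with a median of 0.01: ESRRA (0.32 ± 0.06) and MYC (0.26 ± 0.09) rose and PPRC1 (−0.59 ± 0.06) fell. The third to rise, PPARGC1A, was under 5 CPM in both groups. In this list 33.3% rose, near the share of all tested genes, and 11.1% fell.

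The transcripts that this ribosome translates were higher: all 13 mitochondrially encoded messenger RNAs rose, with a median of 0.84. The mitochondrial ribosomal RNAs MT-RNR1 (0.35 ± 0.10, adjusted p = 0.00722, edgeR) and MT-RNR2 (0.42 ± 0.11, adjusted p = 0.00373, edgeR) rose too, in libraries made from purified messenger RNA. Genes for the cytosolic ribosome, which makes all of these proteins, were mostly higher as well. In its large subunit 44 of 47 rose, with a median of 0.82, and in its small subunit 28 of 30 rose and 1 fell, with a median of 0.90. In these counts the median of the large-subunit members (0.34) was above that of the small-subunit ones (0.07), and in the cytosolic ribosome it was not.

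**Figure D5:**
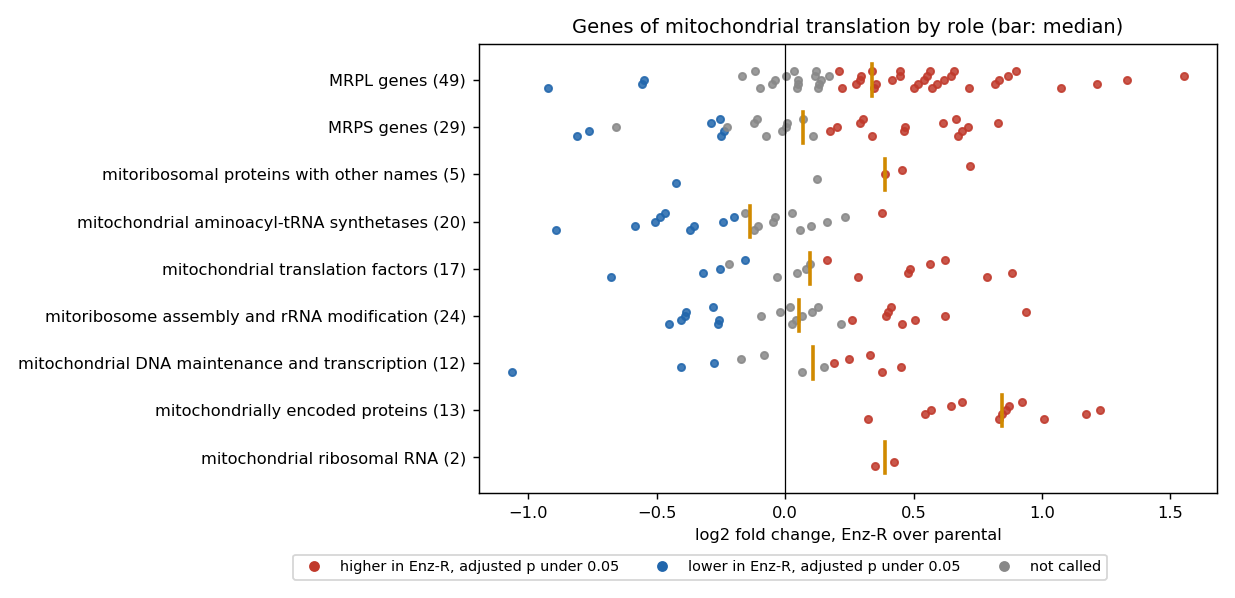
Log2 fold change (Enz-R over parental) of every tested gene in each list of mitochondrial translation and in the members by subunit, coloured by the call, with the median of each list as a bar. Mitochondrially encoded messenger RNAs (median 0.84) lie highest, and mitochondrial aminoacyl-tRNA synthetases (−0.14) lie lowest.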

How the data were processed

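The data are gene counts of 6 RNA-seq libraries of C4-2 cells, read as 150 bp pairs, per the labels' protocols. The submitters' processing notes name HISAT2 and GRCh38. No version, counting tool, annotation or strand setting is stated in the sources used here. The authors deposited raw counts, 1 whole number per gene and library, with no scaling. GENCODE 29 gave the symbol, type, exons and GRCh38 position of 58676 Ensembl identifiers, and 889 loci had none.

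Groups are those of the labels. The members, lists, classes, motifs and alternatives were chosen with earlier results of these data known. All 6 libraries were fitted in edgeR 4.0.16 (R 4.3.3: filterByExpr, TMM, glmQLFit, glmQLFTest, no covariate), with Benjamini-Hochberg adjustment over 19029 genes and a threshold of 0.05. The SE of a log2 fold change was derived from it and the F statistic. CPM values use TMM-scaled totals, and levels per kilobase use the union of a gene's exons. Replicates differed by more than counting error (chi-square per degree of freedom 3.91 to 8.98). Counts of 19029 genes were also simulated, with 1 dispersion for all genes. Changes were planted in 67 genes at 1.5-fold, 67 at 2-fold and 66 at 4-fold, and found in 65.7%, 91.0% and 100% of these. Of the unchanged genes 0.0425% were called. In the data 64.8% of tested genes were called, so the adjusted cut differs and these rates do not carry over to the calls above.

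Values per library are given for the 6 largest called rises and falls and the 2 highest levels per kilobase in each subunit. Up to 3 called rises and 3 falls with at least 5 CPM in the higher group are named from each other list. MRPS18A, MRPS18B, MRPS18C, MRPS30, MRPS36 and MRPL12 were fixed by name. Head-to-head partners, overlapping genes and other members were named after their values were seen.

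Alternatives were a replicate block, each library left out, DESeq2 size factors, total count scaling, no count filter and a minimum of 50 counts in 3 libraries. DESeq2 1.42.0, limma-voom (limma 3.58.1) and mitochondrially encoded genes left out were others. GC content and length of the longest transcript were also regressed out (splines with 5 degrees of freedom), with and without the block. The rest were overlapping members left out, no length scaling, and subunits by place in the ribosome. Levels per kilobase of the longest transcript, members under 5 CPM left out and same-strand overlaps left out were added after the data were seen.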

Additional observations from a re-analysis of the deposited data

How the results depend on the processing

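Of the 43 members called higher 34, and of the 9 called lower 5, were called so under each of 16 other settings of the fit, and none of these 52 was called the other way. Among members not called, MRPL36 (0.13) was called lower and MRPL42 (−0.12) higher with transcript length and GC content regressed out. This held with and without the block. Scaling by total counts moved the median of all tested genes by −0.095 and turned the calls over all genes from 6173 higher and 6150 lower to 5208 and 7094. It gave 15 members lower, 6 in the large subunit, medians of 0.24 (large) and −0.026 (small), and MRPL32 at −0.057, MRPL44 at −0.095, MRPS10 at −0.091, MRPS16 at −0.089 and MRPS30 at −0.026. Regressing out GC content and transcript length left 38 higher and 10 lower, 5 of them large-subunit, with a large-subunit median of 0.25. It put MRPL24 at −0.11, MRPL44 at −0.081, MRPS10 at −0.018 and MRPS34 at −0.10. With no count filter MRPL44 was at −0.017, MRPS10 at −0.017 and MRPS16 at −0.012, and without mitochondrially encoded genes MRPL44 was at −1.23e-05. The 37 members without exon overlap gave 26 higher and 2 lower with a median of 0.42. Of these, the large subunit had 18 higher and 0 lower with a median of 0.45, and the small 8 higher and 2 lower with a median of 0.32, a difference of 0.13. The ratio of large to small rose 1.09-fold without length scaling. The causes of these shifts were not tested.

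Leaving out each library in turn gave 39 to 44 members higher and 7 to 15 lower, 3 to 6 of them large-subunit, 15 and 6 without Enz-R replicate 1. The small subunit then had 4 to 9 lower. The large-subunit median ran from 0.27 to 0.38 and the small-subunit median from 0.024 to 0.10, MRPL44 from −0.089 to 0.098, MRPS10 from −0.040 to 0.038 and MRPS16 from −0.050 to 0.052. The labels do not say whether replicate numbers pair the libraries. Deviations from the group means correlated at 0.049, −0.0081 and 0.011 for like numbers and at −0.055 to 0.047 for unlike ones, which shows no clear pairing but cannot settle it. With the numbers as a replicate block 44 members were higher and 10 lower, and MRPL44 was at −0.0025. The block together with GC content and length gave 39 higher and 13 lower, 7 of them large-subunit, a large-subunit median of 0.25, MRPL24 at −0.11, MRPL44 at −0.086, MRPS10 at −0.020 and MRPS34 at −0.10. In all, named members kept their direction and their side of the threshold in 425 of their values under other settings. With the sign kept, they lost the call in 24 and gained one in 4. The sign turned in 27, in each of them without a call in the new direction. Of these, 2 were for MRPS34, which thereby lost its call as well.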
